A study of Homo sapiens with 24 samples.

Results

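Collagens are the extracellular matrix proteins that hold most tissues together, and 42 collagen genes were examined here for 3 histone marks in PANC-1 cells, an established line from a human pancreatic ductal carcinoma. The annotation used held 19820 protein-coding genes with a coding transcription start site (TSS). Of these, the 42 collagen genes were chosen by their symbols and not by any measured value, though with earlier results of these data known. They fall into 11 fibrillar collagens, 4 basement membrane network collagens, 3 other network collagens, 5 beaded filament collagens, 1 anchoring fibril collagen, 10 FACITs (collagens that attach to fibrils), 4 transmembrane collagens, 2 multiplexins and 2 others. Chromatin immunoprecipitation sequencing (ChIP-seq) of H3K4me3, H3K27ac and H3K27me3 was compared between siControl cells (control siRNA, no TGFb), siControl+TGFb cells (control siRNA, then TGFb at 10 ng/ml for 48 h) and siPHF13+TGFb cells (siRNA against PHF13, then the same TGFb). Each group had 2 libraries per mark, so 18 peak lists were used, and depletion of PHF13 was examined only in TGFb-treated cells. The siRNA transfection was transient, the marks do not measure how far PHF13 was depleted, and nothing in the labels says whether the 2 libraries of a group came from separate cultures. Any p-value therefore measures only the spread between these libraries.

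Collagen chains wind around each other into a stiff helix, and the families differ in what they build. Fibrillar chains form the cables of skin, bone and cartilage, type IV chains form the mesh of basement membranes, FACITs decorate fibrils, and transmembrane collagens sit on cell surfaces. Epithelial cells chiefly make basement membrane collagens, whereas fibroblasts and mesenchymal cells make fibrillar ones, and TGFb is a classical inducer of collagen synthesis. H3K4me3 marks promoters that are active or prepared for activity, H3K27ac marks active promoters and enhancers, and H3K27me3 is laid down by Polycomb repressive complex 2 over silent developmental genes. PHF13 encodes a PHD finger protein that binds H3K4me3.

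In both TGFb-treated groups, peak names within the deposited lists go against the labels. The lists labelled siControl+TGFb carry the name 3AT, and those labelled siPHF13+TGFb carry NCT, the study's own abbreviation for siControl+TGFb. Groups were taken from the labels, and every direction given for PHF13 depletion would be the opposite if these labels were exchanged, while those given for TGFb would then compare siPHF13+TGFb with siControl. The libraries also differed in length. H3K4me3 lists held 27869 to 39202 peaks, H3K27ac lists 6004 to 36104 and H3K27me3 lists 59573 to 165717, and siPHF13+TGFb replicate 1 had the shortest list for every mark. Results on depletion are therefore given with and without that library. Values are base pairs covered by peaks within 5 kb of a coding TSS (the TSS window) or the percentage of the gene body covered. Read counts are not part of these lists, which leaves the depth unknown and allows no counting interval.

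CG dinucleotides are the feature of CpG islands, where H3K4me3 and H3K27me3 are usually found. Promoter sequences of 6 collagen genes are shown because they differ in CG count and carry several, not all, of the combinations of marks found below. Each is the 250 bases before the RefSeq start of the gene, 5′ to 3′ along its strand, in lower case with every CG in capitals. RefSeq promoters (table build GRCh38.p14) were matched for 30 of the 42 genes, and these 6 were placed on GRCh37 by an exact and unique match. COL23A1 (chr5:178017395-178017644, minus strand) and COL8A2 (chr1:36590824-36591073, minus) carried H3K4me3 and H3K27me3, COL6A6 (chr3:130235771-130236020, plus) H3K27me3 alone, COL27A1 (chr9:116917567-116917816, plus) and COL7A1 (chr3:48632763-48633012, minus) mostly H3K4me3, and COL17A1 (chr10:105845639-105845888, minus) no mark in these bases. The COL27A1 bases also held 92 bp of H3K27me3 in siControl replicate 2 and 8 bp of H3K27ac in siControl+TGFb replicate 1. Those of COL7A1 also held H3K27ac, 41 bp in siControl+TGFb replicate 1 and 88 bp in siPHF13+TGFb replicate 2.
COL23A1: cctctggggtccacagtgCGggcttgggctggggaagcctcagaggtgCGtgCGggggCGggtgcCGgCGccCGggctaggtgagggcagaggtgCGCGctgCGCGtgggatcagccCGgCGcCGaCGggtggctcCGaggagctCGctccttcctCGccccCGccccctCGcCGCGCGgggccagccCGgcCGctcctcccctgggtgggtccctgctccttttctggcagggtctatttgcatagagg
COL8A2: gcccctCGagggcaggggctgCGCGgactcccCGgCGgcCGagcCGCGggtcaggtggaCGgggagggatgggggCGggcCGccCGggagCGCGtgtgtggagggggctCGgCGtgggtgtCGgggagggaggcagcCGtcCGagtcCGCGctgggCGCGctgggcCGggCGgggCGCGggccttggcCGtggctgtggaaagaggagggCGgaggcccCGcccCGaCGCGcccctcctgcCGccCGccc
COL6A6: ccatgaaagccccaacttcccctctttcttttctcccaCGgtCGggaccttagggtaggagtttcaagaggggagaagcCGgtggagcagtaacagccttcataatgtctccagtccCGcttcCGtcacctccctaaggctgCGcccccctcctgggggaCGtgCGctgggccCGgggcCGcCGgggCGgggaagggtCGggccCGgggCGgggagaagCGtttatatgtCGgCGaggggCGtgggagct
COL27A1: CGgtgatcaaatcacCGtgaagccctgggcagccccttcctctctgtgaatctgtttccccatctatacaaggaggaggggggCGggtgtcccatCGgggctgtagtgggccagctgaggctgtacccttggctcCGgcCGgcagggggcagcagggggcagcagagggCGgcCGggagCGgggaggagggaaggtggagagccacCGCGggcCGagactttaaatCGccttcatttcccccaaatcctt
COL7A1: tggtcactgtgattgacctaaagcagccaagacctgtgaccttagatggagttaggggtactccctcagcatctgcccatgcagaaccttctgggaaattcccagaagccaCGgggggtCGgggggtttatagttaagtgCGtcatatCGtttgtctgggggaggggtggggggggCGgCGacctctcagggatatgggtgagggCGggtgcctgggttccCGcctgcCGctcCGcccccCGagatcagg
COL17A1: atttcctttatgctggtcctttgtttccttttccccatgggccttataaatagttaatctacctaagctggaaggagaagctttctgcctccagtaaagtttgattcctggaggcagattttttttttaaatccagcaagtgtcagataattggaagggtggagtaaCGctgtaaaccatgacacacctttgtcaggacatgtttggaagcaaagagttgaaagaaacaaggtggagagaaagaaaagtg
The CG count was 25 for COL23A1, 35 for COL8A2, 19 for COL6A6, 13 for COL27A1, 11 for COL7A1 and 1 for COL17A1. The median over the 35116 promoters of the table was 11, and 78.4%, 94.2%, 65.4%, 53.4%, 49.7% and 6.06% of them had fewer CG. At COL23A1, H3K4me3 covered the 250 bases in all 6 lists, and H3K27me3 covered them in 5 and 60 of them in siPHF13+TGFb replicate 1. At COL7A1, H3K4me3 covered the 250 bases in the 4 siControl and siControl+TGFb lists, and 0 and 3 of them in siPHF13+TGFb. CG content is a description of these 6 sequences, since fewer than 80% of the 42 genes had an entry, which voids a check over the family.

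Across the 42 genes examined, most collagen promoters carried H3K4me3 and H3K27me3, and few carried H3K27ac. An H3K4me3 peak lay in the TSS window in all 6 lists at 29 of the 42 genes (69.0%, against 72.7% of all coding genes). H3K27me3 was present in all 6 lists at 24 genes (57.1%, against 21.9%) and in at least 1 list at 34 (81.0%, against 47.4%). H3K27ac was present in all 6 lists only at COL5A2 (2.38%, against 20.9%) and in at least 1 list at 11 genes (26.2%, against 64.6%). These shares are descriptions of the family and were not tested. Collagen genes have larger TSS windows than other genes (median 20092 bp against 10578 bp), with a median of 3 coding TSSs in either set. With the canonical TSS alone, H3K27me3 was still found in all 6 lists at 21 genes (50.0%, against 19.7%) and H3K27ac in at least 1 list at 10 (23.8%, against 62.3%). With only peaks of a −log10 q of at least 3, H3K27me3 remained in all 6 lists at 1 gene (2.38%, against 0.449%). In at least 1 list it then remained at 14 genes (33.3%, against 9.03%). Presence in all 6 lists thus rested mostly on peaks below that filter.

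**Figure D1:**
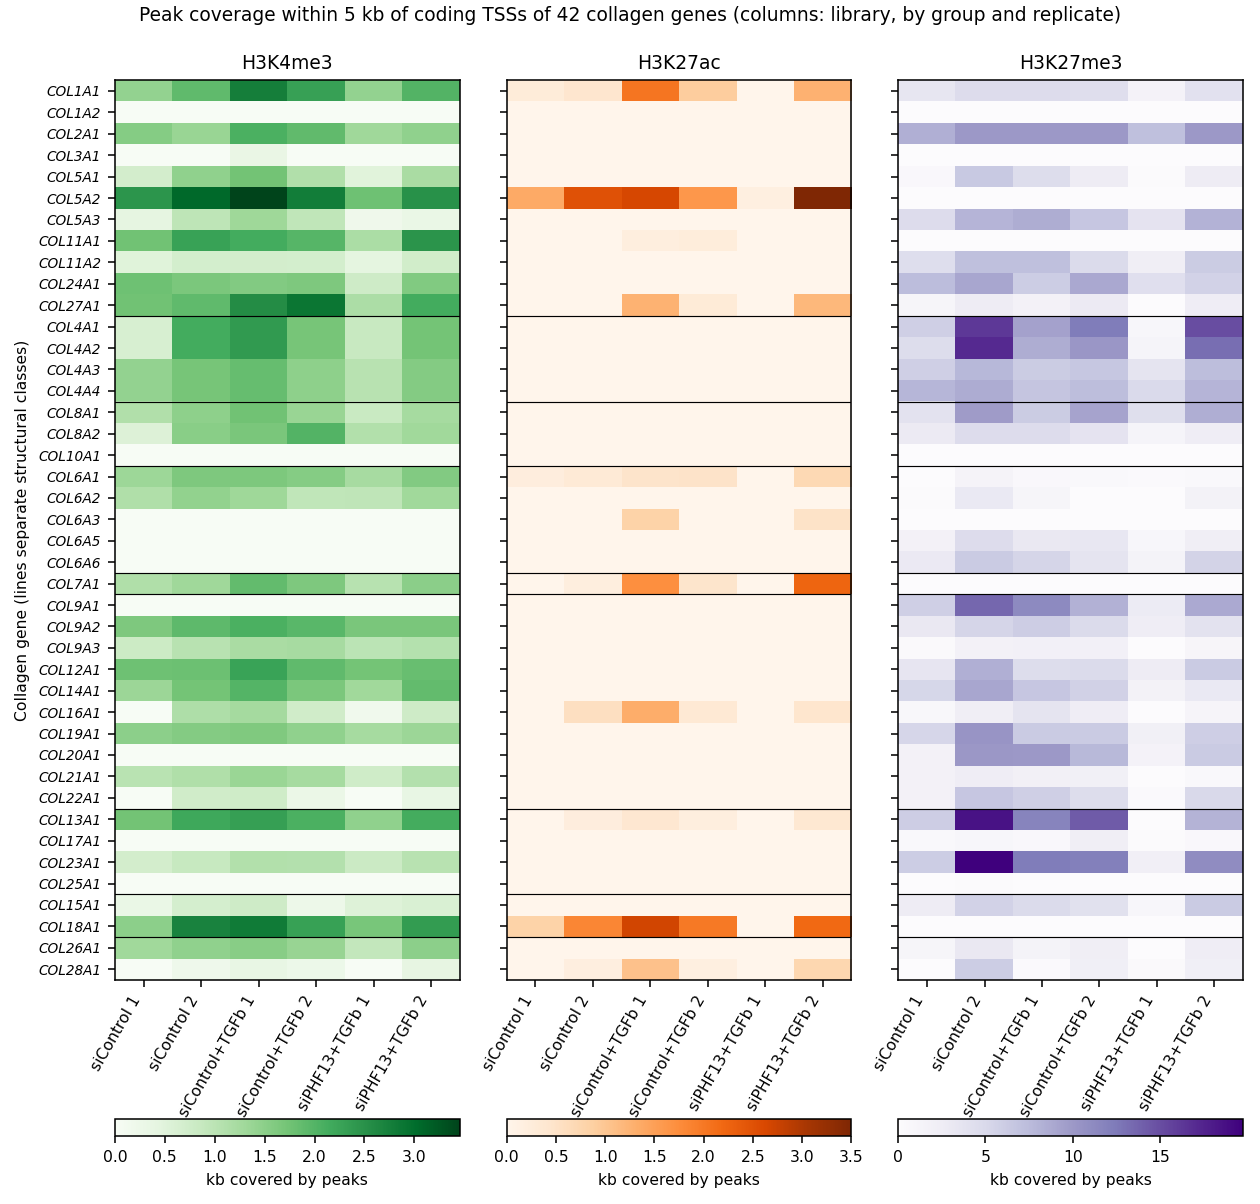
Base pairs covered by peaks of each mark (colour, in kb) within 5 kb of coding TSSs, for the 42 collagen genes (rows, lines between structural classes) in the 6 libraries of each mark (columns). H3K27ac is blank for 31 genes, whereas H3K27me3 is present at 34, and the siPHF13+TGFb 1 column is the palest for H3K27ac and H3K27me3.

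The marks were also read at single bases around the canonical TSS, where window size plays no role. At the TSS base itself, H3K27me3 peaks covered 40.5% and 64.3% of collagen genes in siControl, 61.9% and 54.8% in siControl+TGFb, and 28.6% and 54.8% in siPHF13+TGFb. All coding genes gave 4.70% to 17.4% in the same lists, so collagen genes lay above them in each of the 6. H3K27ac covered the TSS base of 0% to 7.14% of collagen genes per list, against 3.54% to 44.9% of all genes. H3K4me3 covered it in 33.3% to 59.5% of collagen genes and 50.8% to 61.0% of all genes. At 600 bp downstream of the TSS, H3K4me3 covered 31.0% to 50.0% of collagen genes and 55.9% to 63.6% of all genes. In each list collagen genes lay below all genes at both positions.

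**Figure D2:**
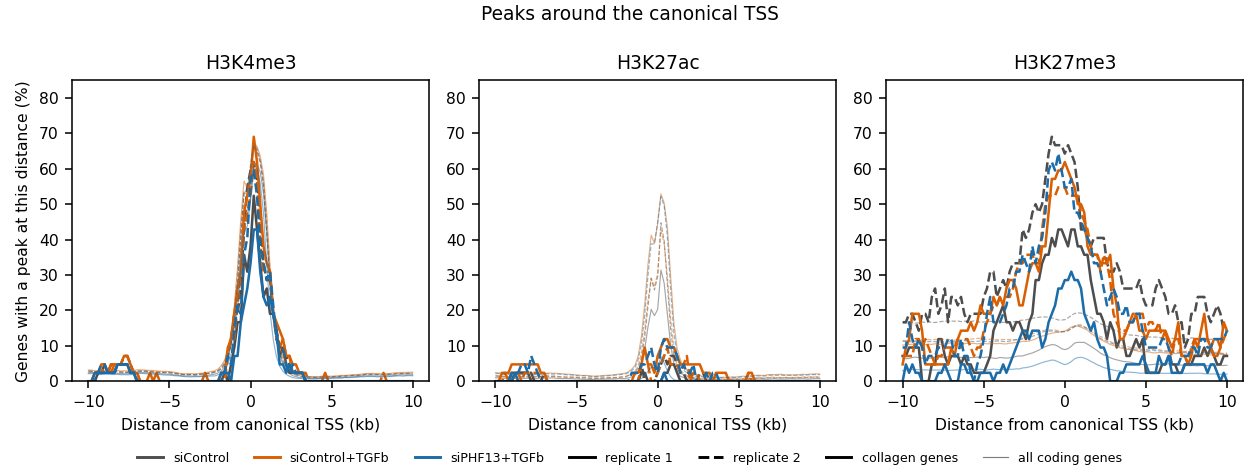
Percentage of genes with a peak at each distance (kb) from the canonical TSS, for collagen genes (thick lines) and all coding genes (thin lines) in each library (colour for group, dashed for replicate 2). H3K4me3 of collagen genes lies below that of all genes at the TSS and 600 bp downstream in each library. H3K27ac of collagen genes stays far below that of all genes, and H3K27me3 of collagen genes peaks at the TSS, far above that of all genes.

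A promoter was given a class from the marks with a peak in both libraries of a group. The most frequent class among collagen genes was H3K4me3 together with H3K27me3, without H3K27ac, the combination known as bivalent. It held 23 genes in siControl (54.8%, against 14.4% of all coding genes), 21 in siControl+TGFb (50.0%, against 13.7%) and 19 in siPHF13+TGFb (45.2%, against 13.98%). H3K4me3 with H3K27ac, the state of an active promoter and the most frequent class of all genes in siControl (43.4%), held 3 collagen genes, COL5A2, COL6A1 and COL18A1. ChIP-seq averages over many cells, so these classes do not show that both marks lie in the same cell. The class counts were identical with the canonical TSS alone (23, 21 and 19), and 22 in siPHF13+TGFb without replicate 1. They dropped to 2, 3 and 1 when only peaks with a −log10 q of at least 3 were used. The share was then 4.76%, 7.14% and 2.38% of collagen genes against 0.772%, 1.26% and 0.272% of all genes.

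**Figure D3:**
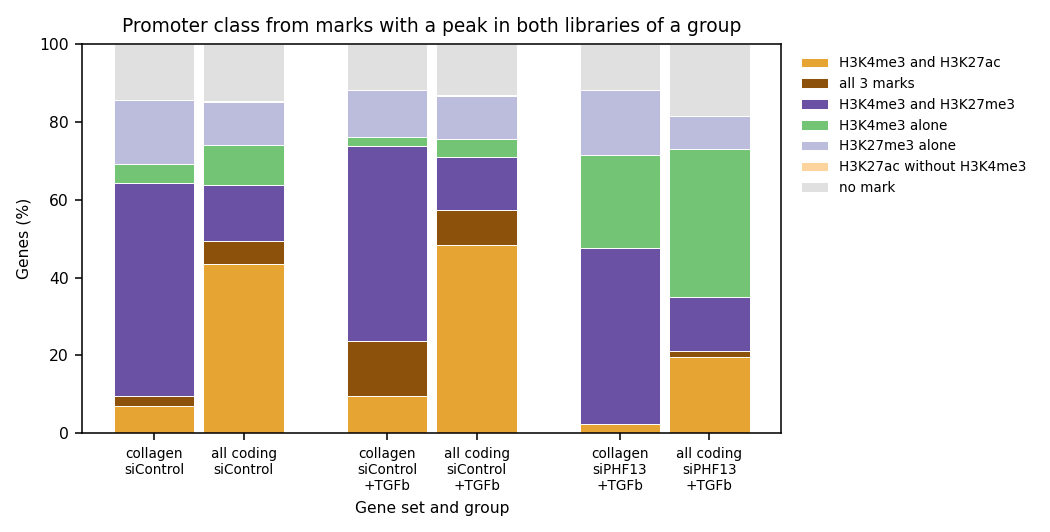
Percentage of genes in each promoter class (stacked colours) for the 42 collagen genes and all 19820 coding genes, in each group. The purple segment, H3K4me3 with H3K27me3, is 54.8%, 50.0% and 45.2% of collagen genes and about 14% of all genes.

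Within this class, the peaks of H3K4me3 and H3K27me3 shared bases in both replicates at 19 of 23 genes in siControl, 20 of 21 in siControl+TGFb and 12 of 19 in siPHF13+TGFb. Over all genes of the class, 68.2%, 80.5% and 49.5% shared bases. The lower count in siPHF13+TGFb rests on replicate 1, where 12 of the 19 genes had shared bases, against 19 in replicate 2. COL12A1, the FACIT chain of type XII collagen in tendon and ligament, is an example of wide overlap: its shared bases were 1582 bp and 1787 bp in siControl, 1674 bp and 1800 bp in siControl+TGFb, and 1265 bp and 1828 bp in siPHF13+TGFb. H3K27me3 thus ran across most of the H3K4me3 peak of COL12A1 in every library. At COL1A1 only 0 bp and 434 bp were shared in siControl, 449 bp and 301 bp in siControl+TGFb, and 0 bp and 243 bp in siPHF13+TGFb. There the H3K27me3 peaks lay mainly upstream of the canonical TSS, while H3K4me3 and H3K27ac lay downstream of it.

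The class was the same in all 3 groups at 28 of the 42 genes. It differed between siControl and siControl+TGFb at 9 genes and between siControl+TGFb and siPHF13+TGFb at 13, against 16.9% and 46.5% of all genes. Without siPHF13+TGFb replicate 1 the count for depletion was 3 (COL11A1, COL6A2 and COL6A3), against 12.4% of all genes, so most of the 13 rest on that library. Collagen genes with all 3 marks numbered 1 in siControl (COL1A1), 6 in siControl+TGFb (COL1A1, COL27A1, COL6A1, COL16A1, COL13A1 and COL28A1) and 0 in siPHF13+TGFb. Of all genes, 6.06%, 8.88% and 1.40% had all 3 marks. Without siPHF13+TGFb replicate 1, the remaining library of that group placed 6 collagen genes there, so the count of 0 rests on that library.

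Among the fibrillar collagens, COL1A1 encodes the major chain of type I collagen and lies at chr17:48261462-48278993 on the minus strand (GRCh37, as all positions here). At COL1A1, H3K4me3 covered 1428 bp and 1890 bp of the TSS window in siControl, 2762 bp and 2305 bp in siControl+TGFb, and 1422 bp and 1998 bp in siPHF13+TGFb. H3K27ac of COL1A1 covered 264 bp and 420 bp, 2029 bp and 912 bp, and 0 bp and 1263 bp in the same order. Both siControl+TGFb libraries were above both siControl libraries for either mark, and for H3K4me3 also above both siPHF13+TGFb libraries. The mean H3K4me3 coverage was 1659 ± 327 bp in siControl, 2534 ± 323 bp in siControl+TGFb and 1710 ± 407 bp in siPHF13+TGFb (SD, n = 2). The two-sided exact permutation test gave p = 0.333 in both comparisons, the smallest value that 2 libraries against 2 allow, so no single gene can pass a threshold of 0.05 by it. H3K27me3 covered 3329 bp and 4625 bp of the COL1A1 window in siControl, 4581 bp and 4389 bp in siControl+TGFb, and 1488 bp and 3985 bp in siPHF13+TGFb. The mark was present in every library, and both siPHF13+TGFb libraries were below both siControl+TGFb libraries.

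The partner chains of the most abundant fibrils gave a different picture. COL1A2, which encodes the other chain of type I collagen, had no peak of any mark in its TSS window in any list, and COL3A1, the type III chain of skin and vessels, had a single H3K4me3 peak of 314 bp in siControl+TGFb replicate 1. H3K27me3 nevertheless covered 5.07% and 22.1% of the COL1A2 gene body in siControl, 2.58% and 7.47% in siControl+TGFb, and 1.17% and 2.77% in siPHF13+TGFb. The COL1A2 values of siControl replicate 2, the library with the longest H3K27me3 list, were the highest.

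COL2A1, the cartilage collagen, was the most H3K27me3-covered collagen gene by gene body. H3K27me3 covered 28.4% and 85.4% of its body in siControl, 80.5% and 62.2% in siControl+TGFb, and 24.5% and 63.2% in siPHF13+TGFb. In its TSS window the mark covered 8385 bp and 10031 bp, 10031 bp and 10031 bp, and 7120 bp and 10031 bp, and 10031 bp is the whole window. Replicate 1 of siControl and of siPHF13+TGFb were the lower libraries, and the groups overlapped. H3K4me3 of COL2A1 covered 1563 bp and 1364 bp in siControl, 2070 bp and 1877 bp in siControl+TGFb, and 1303 bp and 1454 bp in siPHF13+TGFb, with the siControl+TGFb libraries highest. On the log2 scale this was a difference of −0.49 ± 0.12 (SE) for depletion, with a limma adjusted p of 0.409 over 15191 genes.

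COL5A2, a regulatory chain of type V collagen that controls fibril width, had the widest H3K4me3 and H3K27ac coverage of the 42 genes and no H3K27me3 in its window. At COL5A2, H3K4me3 covered 2451 bp and 3052 bp in siControl, 3454 bp and 2788 bp in siControl+TGFb, and 1779 bp and 2499 bp in siPHF13+TGFb. H3K27ac of COL5A2 covered 1358 bp and 2491 bp, 2639 bp and 1607 bp, and 160 bp and 3500 bp in the same order. The siPHF13+TGFb libraries thus held both the lowest and the highest H3K27ac value. The other type V chains differed from it: COL5A1 and COL5A3 carried H3K4me3 with H3K27me3 in all 3 groups, and H3K27ac in 0 lists. COL5A3 H3K4me3 covered 396 bp and 969 bp in siControl, 1321 bp and 934 bp in siControl+TGFb, and 198 bp and 303 bp in siPHF13+TGFb. Both siPHF13+TGFb libraries were the lowest at COL5A3, with a log2 difference of −1.81 ± 0.43 (SE) and a limma adjusted p of 0.409. The COL5A3 window also holds the TSS of RDH8.

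COL11A1, a fibrillar chain of cartilage, and COL27A1, a fibrillar chain of developing cartilage, were the collagen genes whose window gained H3K27ac with TGFb, with a peak in both siControl+TGFb libraries and in neither siControl library. H3K27ac covered 0 bp and 0 bp at COL11A1 in siControl, 201 bp and 240 bp in siControl+TGFb, and 0 bp and 0 bp in siPHF13+TGFb. At COL27A1 it covered 0 bp and 0 bp, 1247 bp and 292 bp, and 0 bp and 1183 bp. Such a gain of a window was found at 1.71% of all genes. The 201 bp and 240 bp at COL11A1 were separate peaks, at chr1:103574768-103574968 and chr1:103572166-103572405, each in 1 list. Neither of these regions was gained or lost by itself, so the COL11A1 calls rest on narrow peaks that did not recur at the same place. COL11A1 was also the only collagen gene that lost H3K27ac from both siPHF13+TGFb libraries, as 0.293% of all genes did, while at COL27A1 siPHF13+TGFb replicate 2 lay between the siControl+TGFb libraries. COL27A1 H3K4me3 covered 1746 bp and 1892 bp in siControl, 2576 bp and 2886 bp in siControl+TGFb, and 1164 bp and 2132 bp in siPHF13+TGFb, and the siControl+TGFb libraries were the highest. COL27A1 also carried H3K27me3, at 1052 bp and 2481 bp, 1707 bp and 2791 bp, and 0 bp and 2405 bp. COL11A1 carried no H3K27me3.

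The remaining fibrillar genes were COL11A2, the other chain of type XI collagen, and COL24A1, both with H3K4me3 and H3K27me3 and no H3K27ac in the TSS window, the former marks in all 6 lists. H3K27me3 covered 19.4% and 48.4% of the COL11A2 body in siControl, 52.0% and 26.3% in siControl+TGFb, and 6.42% and 27.4% in siPHF13+TGFb. These COL11A2 values overlapped between the groups.

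**Figure D4:**
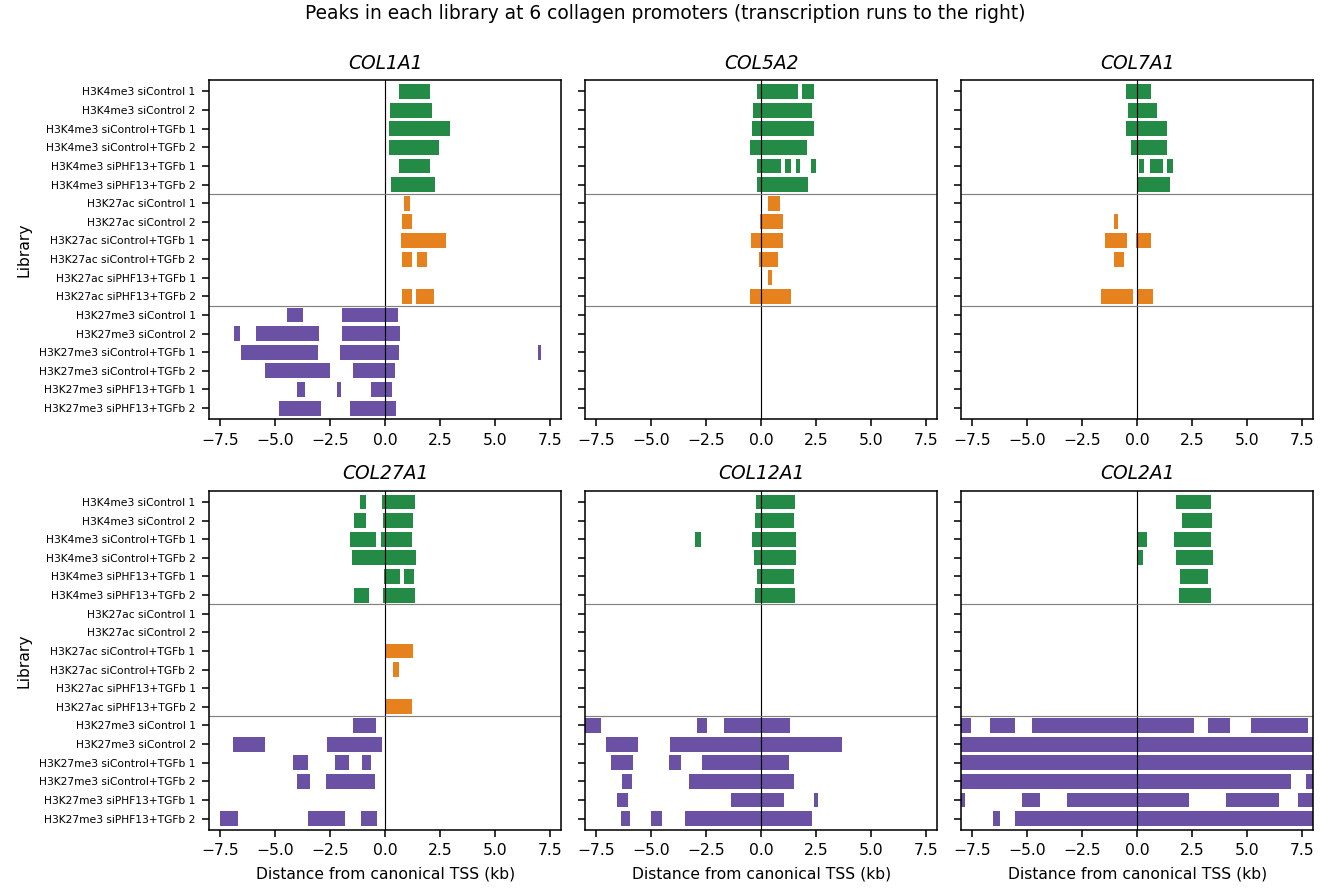
Peaks of H3K4me3 (green), H3K27ac (orange) and H3K27me3 (purple) in each of the 18 libraries at 6 collagen genes, by distance (kb) from the canonical TSS with transcription to the right. COL5A2 and COL7A1 have no H3K27me3, COL12A1 and COL2A1 have no H3K27ac, and the H3K27me3 peaks of COL1A1 lie mostly upstream of its H3K4me3 peaks.

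All 4 basement membrane chains examined carried H3K4me3 and H3K27me3 in all 6 lists and no H3K27ac in any. COL4A1 and COL4A2, the chains of nearly all basement membranes, lie head to head on chromosome 13, as COL4A3 and COL4A4 do elsewhere, so each pair shares its promoter and its H3K4me3 values. At the COL4A1 and COL4A2 promoter, H3K4me3 covered 621 bp and 2143 bp in siControl, 2378 bp and 1696 bp in siControl+TGFb, and 837 bp and 1722 bp in siPHF13+TGFb. H3K27me3 of COL4A1 covered 5809 bp and 16235 bp, 9380 bp and 12294 bp, and 902 bp and 15006 bp. COL4A2 gave 4499 bp and 17109 bp, 8575 bp and 10131 bp, and 1205 bp and 13177 bp. For H3K27me3 the spread within siControl and within siPHF13+TGFb was wider than any difference between groups, and the groups overlapped.

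Of the other network collagens, COL8A2, a chain of the corneal endothelial membrane, had H3K4me3 over 541 bp and 1515 bp in siControl, 1671 bp and 2009 bp in siControl+TGFb, and 1105 bp and 1285 bp in siPHF13+TGFb. Its H3K27me3 covered 2817 bp and 4575 bp, 4626 bp and 3669 bp, and 1175 bp and 2472 bp. Both marks were lower in both siPHF13+TGFb libraries than in either siControl+TGFb library. COL8A1, its partner chain, had H3K27me3 over 15.5% and 41.97% of the gene body in siControl, 16.99% and 21.2% in siControl+TGFb, and 9.35% and 27.4% in siPHF13+TGFb, which overlapped. COL10A1, the collagen of hypertrophic cartilage, had no peak of any mark in its window.

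Among the beaded filament collagens of type VI, the chains differed in their marks. COL6A1 and COL6A2 carried H3K4me3 in all 6 lists and H3K27me3 in 5 and 4, COL6A5 and COL6A6 carried H3K27me3 in all 6 and H3K4me3 in none, and COL6A3 had H3K27ac alone, at 808 bp in siControl+TGFb replicate 1 bp and 499 bp in siPHF13+TGFb replicate 2. COL6A1 H3K27ac covered 217 bp and 314 bp in siControl, 467 bp and 486 bp in siControl+TGFb, and 0 bp and 692 bp in siPHF13+TGFb. The siPHF13+TGFb libraries were again the lowest and the highest.

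COL7A1, which forms the anchoring fibrils under epithelia, carried H3K4me3 in every list and no H3K27me3. At COL7A1, H3K4me3 covered 1123 bp and 1307 bp in siControl, 1864 bp and 1630 bp in siControl+TGFb, and 1042 bp and 1504 bp in siPHF13+TGFb. H3K27ac of COL7A1 covered 0 bp and 201 bp, 1716 bp and 453 bp, and 0 bp and 2237 bp. Both marks were higher in both siControl+TGFb libraries than in either siControl library, and the largest H3K27ac value was that of siPHF13+TGFb replicate 2.

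All 10 FACIT genes had H3K27me3 in at least 1 list, 7 of them in all 6, and only COL16A1 had any H3K27ac in its TSS window. COL9A2, COL9A3, COL12A1 and COL21A1 had H3K4me3 that did not overlap between groups in either comparison. At COL9A2, a cartilage chain, H3K4me3 covered 1631 bp and 1907 bp in siControl, 2066 bp and 1948 bp in siControl+TGFb, and 1672 bp and 1664 bp in siPHF13+TGFb. COL9A3, its partner chain, gave 783 bp and 1035 bp, 1198 bp and 1217 bp, and 994 bp and 1073 bp. COL12A1 gave 1770 bp and 1787 bp, 2265 bp and 1900 bp, and 1720 bp and 1828 bp. In each of these genes the siControl+TGFb libraries were highest, by a margin of at most 304 bp between the group means of siControl and siControl+TGFb.

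COL21A1, a FACIT of vessel walls, had H3K4me3 over 1020 bp and 1123 bp in siControl, 1361 bp and 1233 bp in siControl+TGFb, and 755 bp and 1081 bp in siPHF13+TGFb. COL9A3 H3K27me3 covered 327 bp and 1676 bp in siControl, 1781 bp and 1837 bp in siControl+TGFb, and 0 bp and 973 bp in siPHF13+TGFb. COL16A1, a FACIT of skin and cartilage, gave H3K27me3 values of 670 bp and 2233 bp, 3568 bp and 2454 bp, and 0 bp and 1105 bp. COL9A3 and COL16A1 were the collagen genes whose H3K27me3 was higher with TGFb and lower with depletion without overlap between groups, a pattern seen at 1.91% of all genes. The COL16A1 window also held H3K27ac, at 0 bp and 570 bp, 1319 bp and 347 bp, and 0 bp and 430 bp. COL20A1 had no H3K4me3, and H3K27me3 covered 16.9% and 42.6% of its body in siControl, 44.3% and 36.8% in siControl+TGFb, and 5.35% and 28.8% in siPHF13+TGFb. Both siPHF13+TGFb libraries were below both siControl+TGFb libraries there. COL14A1 and COL19A1 carried H3K4me3 and H3K27me3 in all 6 lists (the COL19A1 window also holds the TSS of LMBRD1), COL22A1 H3K27me3 in all 6 and H3K4me3 in 4, and COL9A1 H3K27me3 alone.

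Of the transmembrane collagens, COL13A1 and COL23A1 carried wide H3K27me3. COL23A1 had the largest mean H3K27me3 coverage of the 42 TSS windows, at 6070 bp and 19778 bp in siControl, 12329 bp and 12059 bp in siControl+TGFb, and 2083 bp and 11008 bp in siPHF13+TGFb. COL13A1, which sits at the neuromuscular junction and other adhesion sites, gave 5988 bp and 18570 bp, 11675 bp and 14252 bp, and 0 bp and 8111 bp. Both siPHF13+TGFb libraries lay below the siControl+TGFb libraries at these genes, whose values lay between those of the siControl libraries. Over the gene body, H3K27me3 covered 17.1% and 59.8% of COL23A1 in siControl, 41.7% and 43.4% in siControl+TGFb, and 6.77% and 43.0% in siPHF13+TGFb. COL23A1 H3K4me3 covered 693 bp and 854 bp, 1101 bp and 1080 bp, and 799 bp and 1033 bp, highest in siControl+TGFb, and COL13A1 H3K4me3 covered 1732 bp and 2188 bp, 2313 bp and 2065 bp, and 1447 bp and 2122 bp, which overlapped. COL17A1, the hemidesmosome collagen of epithelia, had H3K27me3 in all 6 lists at 131 to 2233 bp and no H3K4me3, and in the COL25A1 TSS window the single peak was 200 bp of H3K27me3 in siControl replicate 2.

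The multiplexins are basement membrane proteins, and COL18A1 gives rise to endostatin. COL18A1 H3K4me3 covered 1495 bp and 2703 bp in siControl, 2807 bp and 2281 bp in siControl+TGFb, and 1677 bp and 2359 bp in siPHF13+TGFb. H3K27ac of COL18A1 covered 807 bp and 1829 bp, 2681 bp and 1990 bp, and 0 bp and 2177 bp. H3K27ac was higher in both siControl+TGFb libraries than in either siControl library, H3K4me3 overlapped, and H3K27me3 was in 0 lists. In its TSS window COL15A1, the other multiplexin, carried H3K4me3 and H3K27me3 in all 6 lists and no H3K27ac. Of the others, COL26A1 had H3K4me3 in all 6 lists and H3K27me3 in every list but that of siPHF13+TGFb replicate 1. COL28A1 had all 3 marks in both libraries of siControl+TGFb only.

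For TGFb, the family was counted by genes whose libraries did not overlap between siControl+TGFb and siControl. H3K4me3 was higher at 11 collagen genes and lower at 1 (COL24A1), against 36.2% and 1.6% of all genes. Of the genes with any H3K4me3 peak, 11 of 33 collagen genes and 46.5% of all genes were higher. H3K27ac was higher at 6 collagen genes (COL1A1, COL11A1, COL27A1, COL6A1, COL7A1 and COL18A1) and lower at 0, against 34.4% and 0.0353% of all genes. Of the genes with any H3K27ac peak, these were 6 of 11 collagen genes and 53.3% of all genes. H3K27me3 was higher at 2 (COL9A3 and COL16A1) and lower at 1 (COL4A4), against 2.66% and 2.99%. Over gene bodies it was higher at 1 (COL16A1) and lower at 3 (COL4A3, COL14A1 and COL25A1), against 1.6% and 2.26%.

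**Figure D5:**
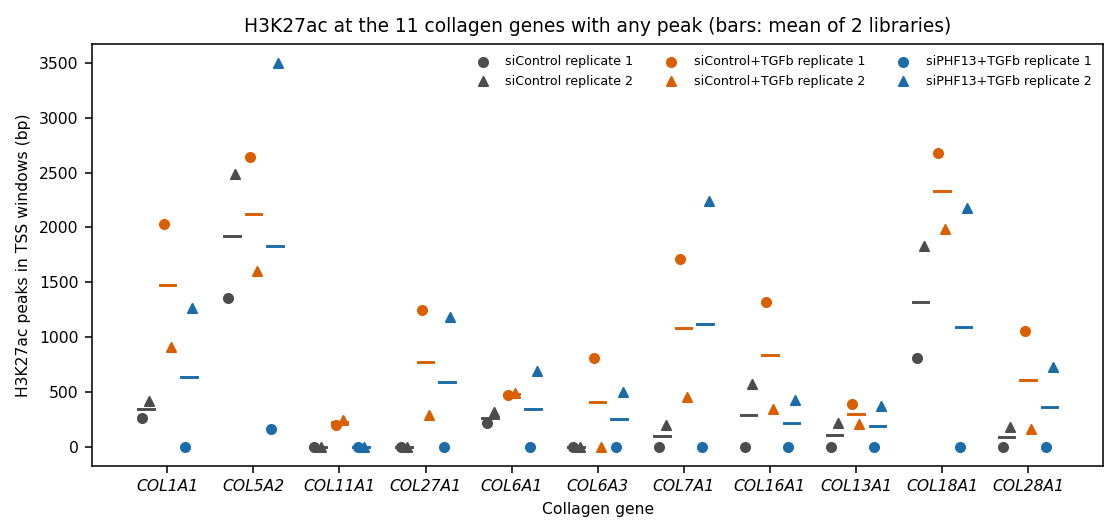
H3K27ac coverage (bp) of TSS windows at the 11 collagen genes with any peak, for each library (circles replicate 1, triangles replicate 2) with the group mean (bars, n = 2). Replicate 1 of siPHF13+TGFb is at or near 0 at every gene, whereas its replicate 2 reaches 3500 bp at COL5A2.

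For PHF13 depletion, the same count compared siPHF13+TGFb with siControl+TGFb. H3K4me3 was lower at 14 collagen genes and higher at 0, against 47.3% and 0.227% of all genes. H3K27ac was lower at 1 (COL11A1) and higher at 0, against 6.48% and 0.0101%. H3K27me3 was lower at 15 (COL1A1, COL5A1, COL24A1, COL8A2, COL6A1, COL6A5, COL9A2, COL9A3, COL14A1, COL16A1, COL19A1, COL20A1, COL21A1, COL13A1 and COL23A1) and higher at 0, against 12.1% and 0.494%. Of the genes with any H3K27me3 peak, 15 of 34 collagen genes and 25.6% of all genes were lower. Over gene bodies H3K27me3 was lower at 11 collagen genes and higher at 0, against 10.4% and 0.383%. Leaving out a siPHF13+TGFb library cannot reduce a count of lower genes, since a gene lower with both libraries is lower with either. Without siPHF13+TGFb replicate 1, H3K27me3 of the remaining library was below both siControl+TGFb libraries at the same 15 genes (12.4% of all genes). It was above both at 9 others (12.8%), among them all 4 type IV genes examined. For H3K4me3 it was below at 14 (48.3%) and above at 3 (8.11%), and for H3K27ac below at 1 (6.48%) and above at 3, COL5A2, COL6A1 and COL7A1 (19.0%). Over gene bodies it was below at 11 (10.7%) and above at 11 (11.9%).

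Across all genes the covered bases were tested with limma on the log2 scale. No collagen gene passed an adjusted p of 0.05 for any mark in either comparison, among 32 collagen genes tested for H3K4me3, 11 for H3K27ac and 33 for H3K27me3. Of all genes tested, 0.125% passed for H3K4me3 with TGFb and 0.151% with depletion, and 0% for H3K27ac and 0% for H3K27me3 in both comparisons. At an unadjusted p under 0.05, H3K4me3 was higher with TGFb at 3 collagen genes (COL2A1, COL9A3 and COL23A1) and lower with depletion at 2 (COL2A1 and COL5A3), and H3K27me3 was lower with depletion at COL21A1. All genes gave 479 higher with TGFb and 1399 lower with depletion of 15191 tested for H3K4me3, and 180 lower with depletion of 8171 for H3K27me3. H3K27ac gave 0 collagen genes at that level, where the 12296 genes tested gave 88 higher with TGFb and 4 lower with depletion. The H3K27ac SE in this fit was 1.51 at the collagen genes tested and drew on all 3 groups, siPHF13+TGFb replicate 1 included. In a fit of siControl and siControl+TGFb alone, 4 of 11 collagen genes and 826 of all genes were higher at that level, and 1 of all genes lower. In that fit 0 genes passed an adjusted p of 0.05.

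The median log2 difference of collagen genes was set beside that of all genes tested. For H3K4me3 it was 0.25 with TGFb against 0.12 of all genes, and −0.39 with depletion against −0.22. For H3K27ac it was 1.62 against 0.59 with TGFb and −1.05 against −1.40 with depletion, and for H3K27me3 0.15 against 0.09 and −0.95 against −0.92. The H3K27ac medians cover only the 11 collagen genes with a peak in at least 2 lists, and COL11A1 entered through its siControl+TGFb lists alone. Without that filter the H3K27ac medians of 42 collagen genes were 0.00 against 0.31 with TGFb and 0.00 against −0.85 with depletion. With 1000 bp added before the log2 in place of 100 bp, they were 0.50 against 0.31 and −0.23 against −0.48 under the filter. Each list was also scaled to the bp it covered over TSS windows of all coding genes, which makes these sums equal within a mark by design. The medians of all genes were then −0.03 and 0.03 for H3K4me3, 0.00 and −1.18 for H3K27ac, and 0.02 and −0.32 for H3K27me3. The scaled medians of collagen genes were 0.11 and −0.15, 1.27 and −0.96, and 0.05 and −0.15. Scaling also turned the direction with depletion at COL9A2, COL9A3, COL12A1, COL19A1 and COL23A1 for H3K4me3 and at COL24A1, COL6A1 and COL9A2 for H3K27me3. Without siPHF13+TGFb replicate 1, the unscaled medians with depletion were −0.18 against −0.09 for H3K4me3, 0.46 against 0.15 for H3K27ac and −0.07 against 0.00 for H3K27me3. The medians with TGFb moved with single libraries as well. Leaving out 1 library at a time, the collagen median ranged from 0.00 (without siControl replicate 1) to 0.42 (without siControl replicate 2) for H3K4me3, from 0.77 (without siControl+TGFb replicate 1) to 2.29 (without siControl+TGFb replicate 2) for H3K27ac, and from −0.37 (without siControl replicate 1) to 0.78 (without siControl replicate 2) for H3K27me3. All genes gave 0.07 and 0.17, 0.30 and 0.88, and −0.58 and 0.73 in those fits.

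Peaks within collagen genes but away from their start sites were examined last. Overlapping H3K27ac peaks were merged into regions, and 67 such regions lay in 17 collagen genes, 46 of them outside TSS windows in 14 genes. With TGFb 7 collagen regions were gained and 0 lost, against 6.97% and 0.058% of 27607 regions in coding genes. With depletion 0 were gained and 1 lost, against 0.0145% and 1.83%. Of the 7 gained regions, 6 also had a peak in siPHF13+TGFb replicate 2, and they lay in COL11A1, COL5A2, COL22A1, COL27A1 and COL13A1.

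Values of the gained regions show how narrow some of these peaks were. A region of COL11A1 at chr1:103344724-103345949 was covered over 0 bp and 0 bp in siControl, 821 bp and 752 bp in siControl+TGFb, and 0 bp and 1004 bp in siPHF13+TGFb. The region of COL22A1, a FACIT of tissue junctions, at chr8:139843401-139844340 gave 0 bp and 0 bp, 914 bp and 603 bp, and 0 bp and 739 bp. In COL13A1, chr10:71633900-71635090 gave 0 bp and 0 bp, 1133 bp and 733 bp, and 0 bp and 887 bp. In all 3 regions siPHF13+TGFb replicate 2 was at the level of the siControl+TGFb libraries and replicate 1 was at 0. The region of COL13A1 that was gained with TGFb and lost with depletion, chr10:71567123-71567463 in a TSS window, gave 0 bp and 0 bp, 341 bp and 193 bp, and 0 bp and 0 bp.

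COL18A1 and COL5A2 held the most H3K27ac regions, with 15 and 11. A COL5A2 intronic region at chr2:190074352-190076268 was present in all 6 lists, at 1196 bp and 1679 bp in siControl, 1869 bp and 1471 bp in siControl+TGFb, and 153 bp and 1873 bp in siPHF13+TGFb. All libraries but siPHF13+TGFb replicate 1 lay between 1196 bp and 1873 bp there. COL21A1, whose TSS window had no H3K27ac, held 5 regions inside the gene. That at chr6:55965453-55966803 was covered over 335 bp and 232 bp in siControl, 1351 bp and 630 bp in siControl+TGFb, and 0 bp and 751 bp in siPHF13+TGFb. In all, 6 collagen genes without H3K27ac in their TSS window held 14 regions elsewhere in the gene.

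Genes that serve the collagen pathway were read in the same way. Of 32 genes for enzymes and chaperones that modify, fold, export or crosslink collagen, 32 had H3K4me3 in all 6 lists. In siControl 15 of them carried H3K4me3 with H3K27ac, among them P4HA1, PLOD2 and SERPINH1, and 12 carried H3K4me3 with H3K27me3, among them LOX, LOXL1 and ADAMTS2. With TGFb, H3K4me3 was higher at 16 and H3K27ac at 7, against 36.2% and 34.4% of all genes. With depletion H3K4me3 was lower at 19, H3K27ac at 3 and H3K27me3 at 5, against 47.3%, 6.48% and 12.1%, and none of the 3 marks was higher at any. Without siPHF13+TGFb replicate 1 these 3 counts, which could not fall, were 19, 3 and 5, and the marks were higher at 4, 7 and 2. P4HA2, a prolyl hydroxylase subunit, had the widest H3K4me3 of these, at 4106 bp and 4102 bp in siControl, 4683 bp and 4596 bp in siControl+TGFb, and 3752 bp and 4322 bp in siPHF13+TGFb, with siControl+TGFb highest. Of 10 genes for collagen receptors, 5 carried H3K4me3 with H3K27ac in siControl (ITGA2, ITGB1, DDR1, GP6 and MRC2).

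Markers of cell type were examined too. KRT8, KRT18 and KRT19, keratins of ductal epithelium, carried H3K4me3 with H3K27ac in siControl and siControl+TGFb, whereas KRT7 had no mark with peaks in both siControl libraries and CDH1 carried H3K4me3 with H3K27me3. KRT7 had H3K27ac in both siControl+TGFb libraries, and EPCAM carried all 3 marks in every group. None of the 6 fibroblast markers had H3K27ac in any list, nor had the 3 leukocyte or the 2 endothelial markers that matched. In siControl 3 of the fibroblast markers (PDGFRA, PDGFRB and THY1) carried H3K4me3 with H3K27me3, the most frequent class of the collagen genes. Of the fibrillar collagens typical of fibroblasts, COL1A2 and COL3A1 were without H3K27ac too, and COL1A1 and COL5A2 carried it.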

How the data were processed

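Peak lists of 18 ChIP-seq libraries (H3K4me3, H3K27ac and H3K27me3, 3 groups, 2 libraries each) were analysed. The 6 input samples were not analysed here. The authors trimmed reads with Trim Galore 0.4.1, aligned them to hg19 with Bowtie2 2.4.1, removed duplicates with Picard and called peaks in each library against input with MACS2 2.2.7.1, as narrow peaks for H3K4me3 and H3K27ac and broad peaks for H3K27me3. The submitters' notes also name deepTools 3.5.0. The authors deposited for every peak a score, its fold enrichment over input, and −log10 p-value and −log10 q-value, and only the last was used, as a filter in an alternative. Its lowest value was 1.30 for narrow peaks, below the threshold in the study's methods, and 1.00 for broad peaks. A deeper or better enriched library gives more and wider peaks, so covered bases reflect library quality too.

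Genes were those of GENCODE release 44 on GRCh37. TSS windows were the union of 5 kb on either side of all coding TSSs. Covered base pairs were compared by an exact two-sided permutation test, by whether groups overlapped, and with limma 3.58.1 in R 4.3.3 on log2(bp + 100) over genes with a peak in at least 2 lists, 3 groups in 1 fit, with Benjamini-Hochberg adjusted p-values under 0.05. Scripts used Python 3.11.15 and NumPy 2.4.6 and were tested on simulated data. Members, lists and tests were chosen with earlier results of these data known. Values in every library were given for genes whose groups did not overlap in both comparisons, genes that gained or lost a mark, the 5 with the widest coverage of each mark (for H3K27me3 also of gene bodies), and COL1A1. Other genes and all single regions were named after their values were seen. Same-numbered libraries did not deviate together (closing section), so they were not treated as pairs.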

Additional observations from a re-analysis of the deposited data

How the results depend on the processing

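Among counts of collagen genes under each alternative, 219 stayed within 1.5 times the reported value and 77 did not. The class counts did so in 88 cases and not in 39, and limma made no call among collagen genes in 101 alternatives and made calls in 1. For single genes, 481 differences stayed, 70 moved and 10 turned direction. The cause of these changes was not tested, except that leaving out a library lets fewer libraries overlap. Depth of the libraries is unknown, which limits every comparison of width. Most counts below stand without the share of all genes under the same alternative. They show how the counts move and are not results particular to collagen genes. Without siPHF13+TGFb replicate 1, for example, H3K4me3 was lower with depletion at 14 collagen genes and at 48.3% of all genes.

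Where 1 library was left out, H3K4me3 counts ranged from 11 to 30 (TGFb, higher), 1 to 4 (TGFb, lower), 0 to 3 (depletion, higher) and 14 to 30 (depletion, lower). H3K27ac counts ranged from 6 to 11 (TGFb, higher), 0 to 3 (depletion, higher) and 1 to 10 (depletion, lower). H3K27me3 counts ranged from 2 to 30, 1 to 25, 0 to 9 and 15 to 31 in TSS windows, in the order of H3K4me3 above, and 1 to 22, 3 to 29, 0 to 11 and 11 to 31 in gene bodies. For H3K27ac with depletion, limma called 0 to 7 collagen genes, the 7 without siPHF13+TGFb replicate 2, where replicate 1 stands alone and is assumed to vary like the other groups, and 9455 of 12296 genes were then called lower. The highest H3K4me3 counts came without siControl+TGFb replicate 2 (30, TGFb) and without siPHF13+TGFb replicate 2 (30, depletion). For H3K27me3, 30 genes were higher with TGFb without siControl replicate 2 and 25 lower without siControl replicate 1.

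Coverage was scaled to each list's sum over coding TSS windows, or over coding gene bodies for the counts in gene bodies. H3K4me3 counts were then 4 (TGFb, lower), 1 (depletion, higher) and 9 (depletion, lower), and H3K27ac counts 1 (TGFb, lower) and 4 (depletion, lower). H3K27me3 counts were 2 (TGFb, lower), 3 (depletion, higher) and 9 (depletion, lower) in TSS windows, and 7, 10, 5 and 7 in gene bodies. With lists of equal length, H3K27ac was higher with TGFb at 0 and lower with depletion at 0 collagen genes, as its shortest list holds few peaks, and H3K27me3 was higher with TGFb at 6 in TSS windows and 5 in gene bodies. With a −log10 q of at least 3, H3K27ac was lower with depletion at 0, and H3K27me3 was higher with TGFb at 0 and lower with depletion at 2 in TSS windows, and lower at 1 (TGFb) and 3 (depletion) in gene bodies. The class with H3K4me3 and H3K27me3 then held 2, 3 and 1 genes.

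With windows of 2.5 kb, H3K27ac was lower with depletion at 2, and H3K27me3 higher with TGFb at 1 and lower at 0. With TSSs of every transcript these counts were 0, 0 and 2. Gene bodies without TSS windows gave 0 higher with TGFb. The difference in mean covered bp with depletion turned positive after scaling for H3K4me3 of COL9A2 (13.97), COL9A3 (35.1), COL12A1 (57.7), COL19A1 (24.2) and COL23A1 (2.59) and for H3K27me3 of COL24A1 (1705), COL6A1 (87.3) and COL9A2 (269), and with the q filter for H3K27me3 of COL19A1 (557.5) and COL23A1 (71.5).

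Deviations of same-numbered libraries from their group means correlated at −0.417 and −0.283 for H3K4me3, −0.238 and −0.085 for H3K27ac, and −0.035 and 0.016 for H3K27me3 in the comparisons with TGFb and depletion. The numbers were therefore not read as pairs. A fit with the replicate block called 0 collagen genes for every mark and comparison, and so did a fit with crossed numbers, chosen after seeing the data. The block left 0 of all genes called for H3K4me3, and the crossed fit 5 with TGFb and 5 with depletion.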
